A study of Mus musculus with 4 samples.

Results

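Circular RNAs (circRNAs) of the types antisense, intergenic and intronic were selected by the type that the authors list for each circRNA. They numbered 226 of the 4295 circRNAs, of which 55 were antisense, 105 intergenic and 66 intronic. The other 3842 sense-overlapping and 227 exonic circRNAs served for comparison.

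C3H10T1/2 cells are mesenchymal cells of mouse embryonic origin. The drug 5-AZA (5-azacytidine) is built into DNA and RNA in place of cytidine and reduces the methylation of DNA. The 2 untreated samples are called replicates 1 and 2, and the 2 samples given 20 μM 5-AZA for 72 hours and cultured for another 21 days are called replicates 101 and 102. How long the untreated samples were kept is not stated. The study calls the samples of a group biological repeats, but neither it nor the labels say whether they came from separate cultures, so p-values measure the spread between these samples only, which may be technical.

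A circRNA forms when a downstream splice donor is joined to an upstream splice acceptor, and only reads that cross this back-spliced junction identify it. Most known circles come from exons on the strand of their host gene. Circles within an intron can be leftover lariats that escaped debranching, circles outside protein-coding genes often come from exons of long noncoding RNAs (lncRNAs), and antisense circles lie on the strand opposite an annotated gene.

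Values are RPM, the junction reads scaled to the sequenced reads of each sample. All values were whole multiples of 1 step in each sample, with the smallest listed value equal to 2 reads. The totals implied by this step were 92903364 to 93920706 reads per sample, and 10448 to 13388 reads crossed a junction. The 3 types held 2.56% to 3.91% of them. Intervals that rest on counts cover counting error only. Folds against a floor of 3 reads per library do not cover the counting error of the listed group.

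The cells of each group were checked by marker genes. Summed skeletal muscle markers were 1.34 and 1.10 FPKM (fragments scaled to transcript length and library size) in the untreated samples and 678 and 1040 FPKM in the 5-AZA samples. Mesenchymal markers summed to 2625 and 2727 FPKM untreated and to 1648 and 1839 FPKM after 5-AZA, and adipocyte markers to 42.5, 27.7, 1015 and 1388 FPKM. Cardiac markers summed to 2.52, 2.88, 30.7 and 46.6 FPKM with Nppa listed at 0, and immune markers stayed at 2.12 to 5.14 FPKM with Adgre1 listed at 0. Of 5 cardiac markers, 1 reached 1 FPKM untreated and 2 after 5-AZA, so the cardiac sum does not speak for the whole list. Of 6 skeletal muscle markers, 0 reached 1 FPKM untreated and 5 after 5-AZA. In such bulk RNA, fewer cells of a type and less RNA per cell cannot be told apart, and the part of these changes in the circRNA values was not tested.

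The bases beside a circle end can be compared with those of splice sites. They could be read for 8 ends of 8 circles that fall within a RefSeq promoter window of GRCm38.p6. All 4 acceptor ends were preceded by AG and all 4 donor ends were followed by GT, the usual intron borders. The 4 donor ends lie at 3 positions, since circRNA_2220 and circRNA_2222 share their donor, and the donors of 3 of the 4 circles are in the window of Ifit3b, whose reads are uncertain as described below. Of all dinucleotides in the 32851 windows, AG made up 7.69% and GT 4.98%. The 48 sense-overlapping circle ends in such windows had AG at 43 of 43 acceptors and GT at 5 of 5 donors. Over all types, AG stood at 53 of 53 acceptors and GT at 9 of 9 donors. The predictor of the circles is not known, and one that keeps only junctions with these bases would give this outcome in advance. The bases are therefore no test of back-splicing. No intronic circle had an end in a window, so nothing was read for that type. The sequences run 5′ to 3′ on the strand of the circle, with the intron dinucleotide in capitals, with examples of both kinds of end.
circRNA_0828, acceptor, antisense to Hdac9, chr12:34086713, + strand: tgtttcctAGgaaaagacctt
circRNA_4176, acceptor, antisense to Gm20783, chr9:124423792, + strand: tttacggcAGgaagtccctct
circRNA_1649, acceptor, intergenic, chr16:25089342, + strand: ttccttatAGgcttaaatgca
circRNA_3258, donor, intergenic, chr5:109923470, - strand: cagatctacagGTatttgtat
circRNA_2222, donor, listed as antisense at Ifit3, chr19:34607998, + strand: accatcatgagGTcagtgc

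The first question was how well each type was covered. Each of the 3 types had a median of 3 reads per circle over the 4 samples, against 5 for exonic and 4 for sense-overlapping circles. Antisense circles were listed in 1 sample in 49 of 55 cases, intergenic circles in 83 of 105 and intronic circles in 64 of 66. The corresponding shares were 89.1%, 79.0% and 97.0%, against 52.9% of the exonic and 68.2% of the sense-overlapping circles. Among circles with 4 to 9 reads in all, 3 of 16 antisense, 7 of 33 intergenic and 1 of 13 intronic circles were listed in at least 2 samples, against 31 of 64 exonic and 446 of 1240 sense-overlapping circles. In all, 5 intergenic circles and 1 intronic circle were listed in all 4 samples, and no antisense circle was.

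**Figure D1:**
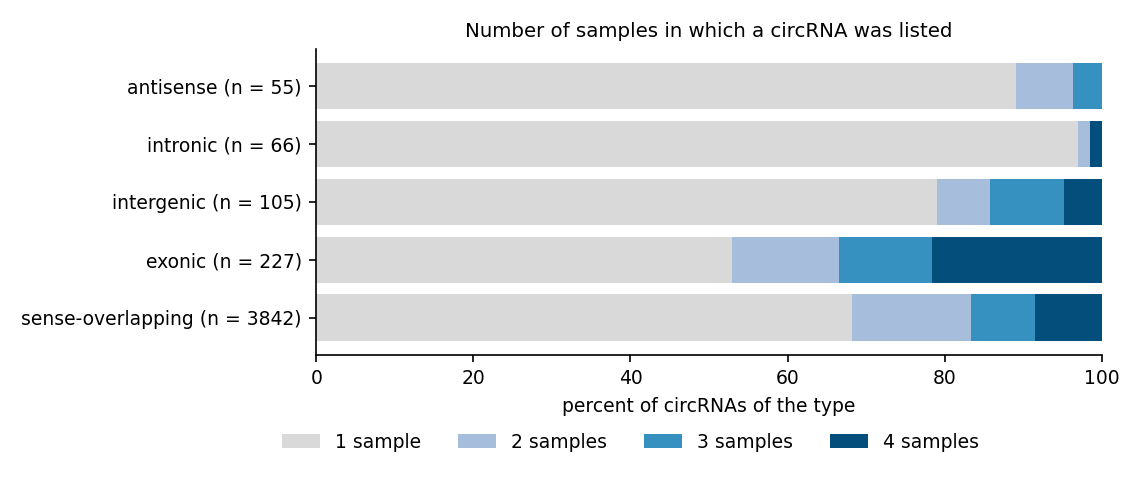
Percent of the circRNAs of each type (horizontal axis) that were listed in 1, 2, 3 or 4 of the 4 samples, with the number of circRNAs beside each type. Circles listed in 1 sample make up 97.0% of the intronic, 89.1% of the antisense and 79.0% of the intergenic type.

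circBase, a public collection of circRNAs, held 3 of the 55 antisense circles (5.45%, Wilson 95% interval 1.87 to 14.9), 22 of the 105 intergenic circles (21.0%, 14.3 to 29.7) and 5 of the 66 intronic circles (7.58%, 3.28 to 16.5). It held 71.4% of the exonic (65.2 to 76.9) and 53.0% of the sense-overlapping circles (51.4 to 54.6). The intervals of the 3 types lie below those of the other 2 types. Among intergenic circles listed in at least 2 samples the share was 50%.

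The types differed in size. The median listed length was 564 bases for antisense, 1040.5 bases for intronic and 3666 bases for intergenic circles, against 638 for exonic and 607 for sense-overlapping circles. Over 10 kb were 37 of 105 intergenic circles, 11 of 55 antisense and 5 of 66 intronic circles. Part of this follows from how length was listed. The length equals the genomic span, introns included, for all 105 intergenic and all 66 intronic circles and for 41 of 55 antisense circles, but for 81 of 3842 sense-overlapping circles. The medians of the genomic span were 793 bases for antisense and 11472 bases for sense-overlapping circles, so intergenic circles were longer in listed length and shorter in span than the sense-overlapping type.

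**Figure D2:**
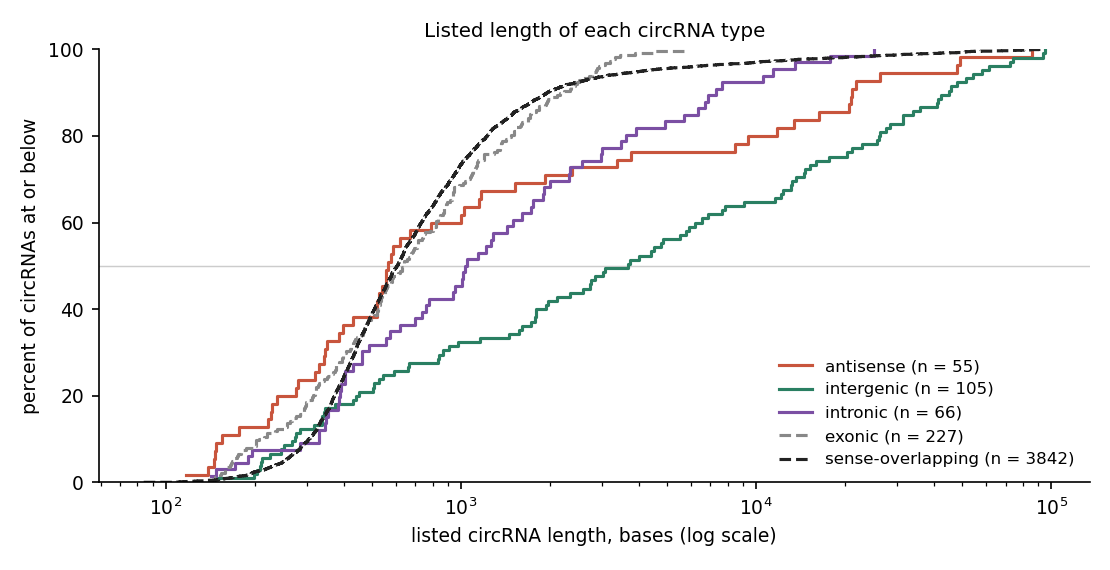
Cumulative percent of the circRNAs of each type (vertical axis) at or below a listed length in bases (horizontal axis, log scale). The intergenic curve crosses 50% at 3666 bases, to the right of the intronic curve at 1040.5 and the antisense curve at 564.

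Circles of 1 locus often share an end. An end was shared with another circle of the same strand by 42 of 105 intergenic circles (40%), 4 of 55 antisense circles and 5 of 66 intronic circles, against 48.3% of the sense-overlapping and 39.6% of the exonic type. The antisense and intronic types were at 7.27% and 7.58%. Of the 42 intergenic circles, 22 were at lncRNA genes (of 50), 11 were mitochondrial (of 19), 8 overlapped no gene (of 22) and 1 a protein-coding gene (of 6). The intergenic share, which includes the mitochondrial circles, was thus near that of the exonic type and above those of the antisense and intronic types. Whether the shared ends are splice sites was not tested.

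The next question was whether the types differed between untreated and 5-AZA treated cells. Antisense circles summed to 0.473 and 0.557 RPM in the untreated samples and to 0.710 and 0.884 RPM in the 5-AZA samples, from 44, 52, 66 and 83 reads. The groups did not overlap, and the means were 0.515 ± 0.0589 and 0.797 ± 0.123 RPM (SD, n = 2; exact two-sided permutation p = 0.333, the smallest that 2 against 2 samples allow). This difference rests on 3 circles listed at Ifit3, described below. Without them the sums were 0.419, 0.557, 0.452 and 0.607 RPM, and the groups overlapped.

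Intergenic circles summed to 2.76, 2.42, 2.03 and 3.20 RPM in replicates 1, 2, 101 and 102. The 5-AZA samples were the lowest and the highest, and the means were 2.59 ± 0.244 and 2.62 ± 0.828 RPM (SD, n = 2; exact permutation p = 1). Of the reads of replicate 102, 96 came from 1 mitochondrial circle. Without the 19 mitochondrial circles the sums were 2.13, 2.01, 1.89 and 2.04 RPM.

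Intronic circles summed to 0.785, 0.696, 0.689 and 0.256 RPM. Replicate 102 was far below the other samples, with 9 intronic circles listed against 23, 20 and 18. The means were 0.740 ± 0.0632 and 0.472 ± 0.306 RPM (SD, n = 2; exact permutation p = 0.333). As a share of junction reads the type held 0.550%, 0.486%, 0.587% and 0.230%, and the groups overlapped.

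Total junction reads were also lower after 5-AZA. Sense-overlapping circles summed to 114 ± 0.256 RPM untreated and 90.6 ± 4.58 RPM after 5-AZA, and exonic circles to 25.5 ± 0.307 and 19.8 ± 0.402 RPM (SD, n = 2). The 3 types without mitochondrial circles together held 315, 305, 306 and 299 reads. Their share of junction reads was therefore 2.37% and 2.28% in the untreated and 2.81% and 2.86% in the 5-AZA samples, with no overlap between the groups.

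**Figure D3:**
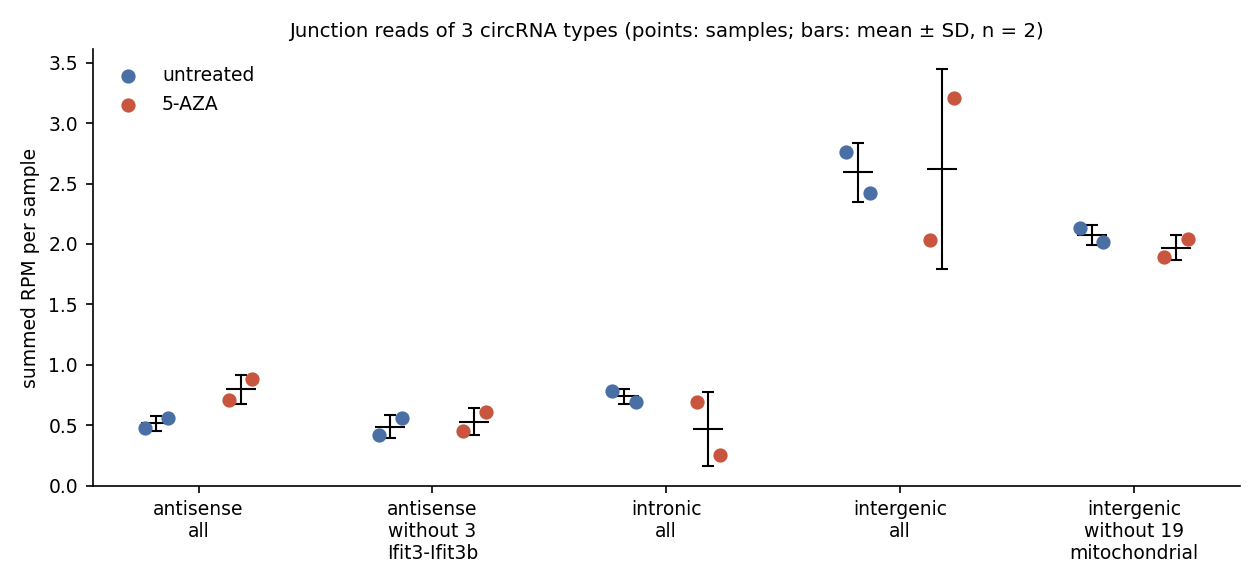
Summed RPM (vertical axis) of the 3 circRNA types in each sample (points), with the mean and SD of each group (black bars, n = 2). The antisense groups are apart with all 55 circles and overlap without the 3 circles of Ifit3 and Ifit3b, and the spread of the intergenic 5-AZA samples is smaller without the mitochondrial circles.

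Single circles were tested with limma over all 1360 circRNAs listed in at least 2 samples, of which 6 were antisense, 22 intergenic and 2 intronic. None of the 30 passed an adjusted p of 0.05, and neither did any other circRNA (0% of 1360). At an unadjusted p below 0.05, limma gave 8 of the 30, with 4 higher (6.69% of all tested) and 4 lower after 5-AZA (11.8% of all tested), and the voom variant of limma also gave 8. The 8 from limma include 3 circles listed in both untreated samples only and 3 in both 5-AZA samples only. Those entered the test through the group where they are higher, and values of 0 in the other group have no spread. Their small p-values are therefore no support for a difference. The groups did not overlap for 7 of the 30 higher (14% of all tested) and 7 lower (24.9%). The median log2 difference was 1.06 for the 6 antisense, -0.23 for the 22 intergenic and -0.33 for the 2 intronic circles, against -0.16 for all circRNAs tested. Of the 6 antisense circles, 2 were tested only because both 5-AZA samples listed them while no untreated sample did. These medians therefore do not compare the types. Scaling to the junction reads of each sample in place of RPM moved the median of all circRNAs by 0.15 and turned the sign of 3 of the 30 circles. With it 18 of the 30 were higher and 12 lower, in place of 15 and 15.

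Among antisense circles, those at Ifit3 held the most reads. Ifit3 encodes an interferon-induced antiviral protein. The circle circRNA_2222 (chr19:34587061-34607998, + strand) had 5, 0, 21 and 23 reads in replicates 1, 2, 101 and 102. Both 5-AZA samples were above both untreated samples, with 0.0269 ± 0.0380 RPM untreated and 0.235 ± 0.0133 RPM after 5-AZA (SD, n = 2). The log2 difference was 2.68 with a standard error of 0.76 (limma adjusted p = 0.213).

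Of the other circles at this place, circRNA_2220 had 3 reads in replicate 102 and circRNA_2221 had 3 reads in replicate 101. All 3 run from Ifit3 to Ifit3b and lie on the + strand, the strand of both genes, although they are listed as antisense. They are the only 3 of the 55 antisense circles on the strand of their listed gene. All 3 spans also overlap the RefSeq gene Ifit1bl1, which was not matched to their strand. Whether the antisense label refers to that gene was not tested.

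Ifit3 and Ifit3b are near-identical copies, so the reads of these circles are uncertain. Their promoter windows matched at 259 of 260 aligned bases, gaps not counted. The donor of circRNA_2221 lies at -194 bases from the listed start of Ifit3b, and the 22 bases around it also occur before Ifit3, at chr19:34583348-34583369. The donor of the other pair lies 41 bases after the start of Ifit3b. The Ifit3 window ends before the matching place, so whether Ifit3 holds the same bases was not tested. Both stretches are shown with the GT in capitals, since they are the donor sites of these 3 circles.
Ifit3b and Ifit3, donor of circRNA_2221, chr19:34607744-34607765: ggacatagaaggtctcagtgGT
Ifit3b, donor of circRNA_2220 and circRNA_2222, chr19:34607979-34608000: aaacagatcaccatcatgagGT

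The mRNA of both genes rose after 5-AZA. Ifit3 had 7.85 and 7.18 FPKM untreated and 92.4 and 75.1 FPKM after 5-AZA, a log2 difference of 3.45 ± 0.13 (SE; limma adjusted p = 6.69e-07). Ifit3b had 4.23, 3.83, 27.5 and 24.5 FPKM, a log2 difference of 2.66 ± 0.13 (SE; limma adjusted p = 3.04e-06). Ifit1bl1, which the circles also span, had 0.133, 0.208, 1.21 and 0.886 FPKM, a log2 difference of 2.08 ± 0.33 (SE; limma adjusted p = 0.00185). Circle and mRNA were thus higher in the same samples.

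The other antisense circles with most reads had 9 to 11 reads. circRNA_0828 (chr12:34086713-34096074) lies opposite Hdac9, a histone deacetylase gene that restrains muscle gene activity, and had 0, 0, 5 and 5 reads. circRNA_4176 (chr9:124423792-124440885) lies opposite Gm20783 and had 0, 0, 4 and 5 reads. Both were listed in the 5-AZA samples only. circRNA_0828 also lies on the strand of the RefSeq gene Gm40384, and circRNA_4176 on that of 4930526I15Rik. Their acceptors lie 2 and 5 bases after the listed starts of these genes. The 5-AZA mean of circRNA_0828 was 1.66-fold a floor of 3 reads per untreated library, with its own reads taken as exact. After 5-AZA, circRNA_4176 had 0.0481 ± 0.0072 RPM (SD, n = 2). Their unadjusted p-values were 0.00847 and 0.00945 and the limma adjusted p was 0.119 for both. Hdac9 mRNA itself was at 0.114, 0.0665, 0.236 and 0.277 FPKM, with a limma adjusted p of 0.117.

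circRNA_0098, opposite the microtubule gene Map2, had 0, 5, 3 and 3 reads, and circRNA_0181, opposite the zinc finger gene Zc3h11a, had 4, 0, 5 and 0. Neither separated the groups. They and the circle opposite the cell adhesion gene Kirrel3, with 6 reads in replicate 2, are the 3 antisense circles in circBase.

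Of the 55 antisense circles, 14 lay on the strand of another RefSeq gene. circRNA_1854, opposite the bone regulator Runx2, lies on the strand of Supt3, and circRNA_3850, opposite Farsa, spans 92826 bases and belongs to a cluster of 10 circles with shared ends and 1804 reads, of which it has 3. circRNA_0984 (chr12:109558237-109607496, + strand), opposite the retrotransposon-like gene Rtl1, runs from Meg3 to Rian, imprinted lncRNA genes of the same strand. It had 2, 0, 0 and 4 reads, once in each group.

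The span of circRNA_0984 holds 16 microRNA hairpins of the RefSeq table, 14 of them on its strand, and no other of the 226 circles holds any. Several of these miRNAs come from the strand opposite Rtl1, whose transcript they match. The mature forms below show the seed (bases 2 to 8) in capitals, and they share no seed with each other.
mmu-miR-431-5p, chr12:109590459-109590479: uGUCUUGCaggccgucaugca
mmu-miR-433-3p, chr12:109591781-109591802: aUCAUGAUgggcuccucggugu
mmu-miR-127-3p, chr12:109592888-109592909: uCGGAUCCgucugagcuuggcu
mmu-miR-434-3p, chr12:109594565-109594586: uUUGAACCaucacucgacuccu
mmu-miR-136-5p, chr12:109595331-109595352: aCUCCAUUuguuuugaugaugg

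Hosts of antisense circles included abundant mRNAs. Of 51 host genes, 7 were above 100 FPKM (13.7%), and so were 5 of the 58 intronic hosts (8.62%), against 3.23% of the sense-overlapping hosts and 2.42% of all genes. The intermediate filament gene Vim had a mean of 2337 FPKM untreated and the scaffold gene Ahnak 233 FPKM. The antisense circles at these genes were sparse, with 5 reads in replicate 2 at Vim and 3 circles of 3 or 4 reads, each in another sample, at Ahnak. None of the 55 shared an end, within 5 bases, with a circle on the other strand, and 4 overlapped such a circle.

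Called genes passed a limma adjusted p of 0.05 with over 2-fold change. Of 48 tested antisense hosts, 4 rose and none fell (14.4% of 13199 genes were called, 13.1% higher and 1.32% lower). Of 2031 tested sense-overlapping hosts, 69 rose and 17 fell (4.23% called). The 4 called antisense hosts were Ifit3, Rtl1, the actin nucleator Cobl and Ttn, which encodes the sarcomere spring titin. Ttn had 0.0168, 0.0120, 7.24 and 8.59 FPKM, a log2 difference of 6.13 ± 0.26 (SE; limma adjusted p = 1.35e-06), and its antisense circle had 3 reads in replicate 102 only. Rtl1 had 0.0912, 0.0134, 0.609 and 0.734 FPKM, a log2 difference of 2.38 ± 0.39 (SE; limma adjusted p = 0.00228). Without replicate 101 or without replicate 102, 2 of the 4 were called, Ifit3 and Ttn.

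The intergenic circles fell into groups by the RefSeq gene at their place. Of the 105, 50 overlapped a lncRNA gene, 19 were mitochondrial, 7 overlapped a pseudogene, 6 a protein-coding gene and 1 another kind of gene, and 22 overlapped no gene. A lncRNA transcript measured by the authors overlapped 89 of them (84.8%), and 73 had one on their own strand (69.5%). Circles at lncRNA genes had a median length of 10346.5 bases and 15 of 50 were in circBase, while the mitochondrial circles had a median of 347 bases and none was in circBase.

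The intergenic circle with the most reads was circRNA_2688 (chr3:78966402-78966775, - strand), within the pseudogene Gm9762. It had 42 and 48 reads untreated and 25 and 32 reads after 5-AZA. The groups did not overlap, with 0.483 ± 0.0439 and 0.305 ± 0.0506 RPM (SD, n = 2), and the log2 difference was -0.63 ± 0.19 (SE; limma adjusted p = 0.230). Scaled to junction reads its log2 difference was -0.33, so its size depends on the scaling. A pseudogene can share its sequence with its parent gene, so the source of these reads is uncertain. The same holds for circRNA_0386 in Zfa-ps, with 8, 5, 0 and 3 reads.

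Pvt1, a lncRNA gene beside Myc, gave circRNA_1485 (chr15:62107148-62107465, mmu_circ_0000604), with 38, 21, 19 and 29 reads. The groups overlapped, and the log2 difference was -0.25 ± 0.41 (SE; limma adjusted p = 1). Scaled to junction reads its log2 difference was 0.05, so its direction depends on the scaling.

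Lncpint, a lncRNA gene linked to the p53 response, gave 5 circles built from 3 start and 2 end positions, all of them in circBase. circRNA_3360 had 5, 4, 4 and 17 reads, circRNA_3361 had 4, 0, 11 and 8 and circRNA_3362 had 0, 2, 6 and 5. The remaining circles, circRNA_3359 and circRNA_3363, had 6, 2, 0 and 2 reads and 0, 3, 0 and 3 reads.

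The 5 Lncpint circles summed to 0.161 and 0.118 RPM untreated and to 0.226 and 0.373 RPM after 5-AZA. The 72 lncRNA transcripts on the strand of Lncpint summed to 112 and 103 FPKM untreated and to 73.6 and 66.4 FPKM after 5-AZA. The groups did not overlap in either measure, and the directions were opposite: the 5-AZA to untreated ratio was 2.15 for the circles and 0.649 for the transcripts (exact permutation p = 0.333 for each, the smallest possible). Of these transcripts, NONMMUT150339.1 (chr6:31160338-31160660, named after its values were seen) had 4.94 and 4.32 FPKM untreated and was listed at 0 in both 5-AZA samples (limma adjusted p = 0.00853). It was not called when any 1 sample was left out.

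On chromosome 14, 3 circles shared the start chr14:106216570 on the + strand. circRNA_1371, with no RefSeq gene, had 15, 20, 13 and 17 reads, circRNA_1372 had 8, 3, 3 and 5, and circRNA_1373 had 5 reads in replicate 1. Summed, they had 0.301 and 0.246 RPM untreated and 0.172 and 0.234 RPM after 5-AZA. The lncRNA transcripts of this stretch summed to 3.47 and 3.38 FPKM untreated and 10.5 and 5.40 FPKM after 5-AZA. Circles were lower and transcripts higher after 5-AZA without overlap (exact permutation p = 0.333 for each). The circle sums came from 28, 23, 16 and 22 reads, so their groups were barely apart, with 23 reads in replicate 2 and 22 in replicate 102. Scaled to junction reads, the log2 difference of circRNA_1371 was 0.09 in place of -0.20, so the direction of the circles is uncertain.

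At the lncRNA gene Gm32364, circRNA_0416 (chr10:67578116-67591327) had 7, 7, 0 and 0 reads. Its untreated mean was 2.34-fold a floor of 3 reads per 5-AZA library, with its own reads taken as exact (limma unadjusted p = 0.00689, adjusted p = 0.119). A second circle from the same start, circRNA_0417, had 0, 3, 2 and 0 reads. The transcripts of the gene summed to 5.62, 5.37, 2.18 and 1.95 FPKM, also lower after 5-AZA.

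Malat1, an abundant nuclear lncRNA, had 6 circles with 19 reads in all, each in 1 sample, beside transcripts that summed to 3874 to 4237 FPKM. Of 189 tested lncRNA transcripts on the strand of an intergenic circle, 1 rose and 3 fell (1.14% of 24075 lncRNAs were called), and 0 were called when any 1 sample was left out.

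**Figure D4:**
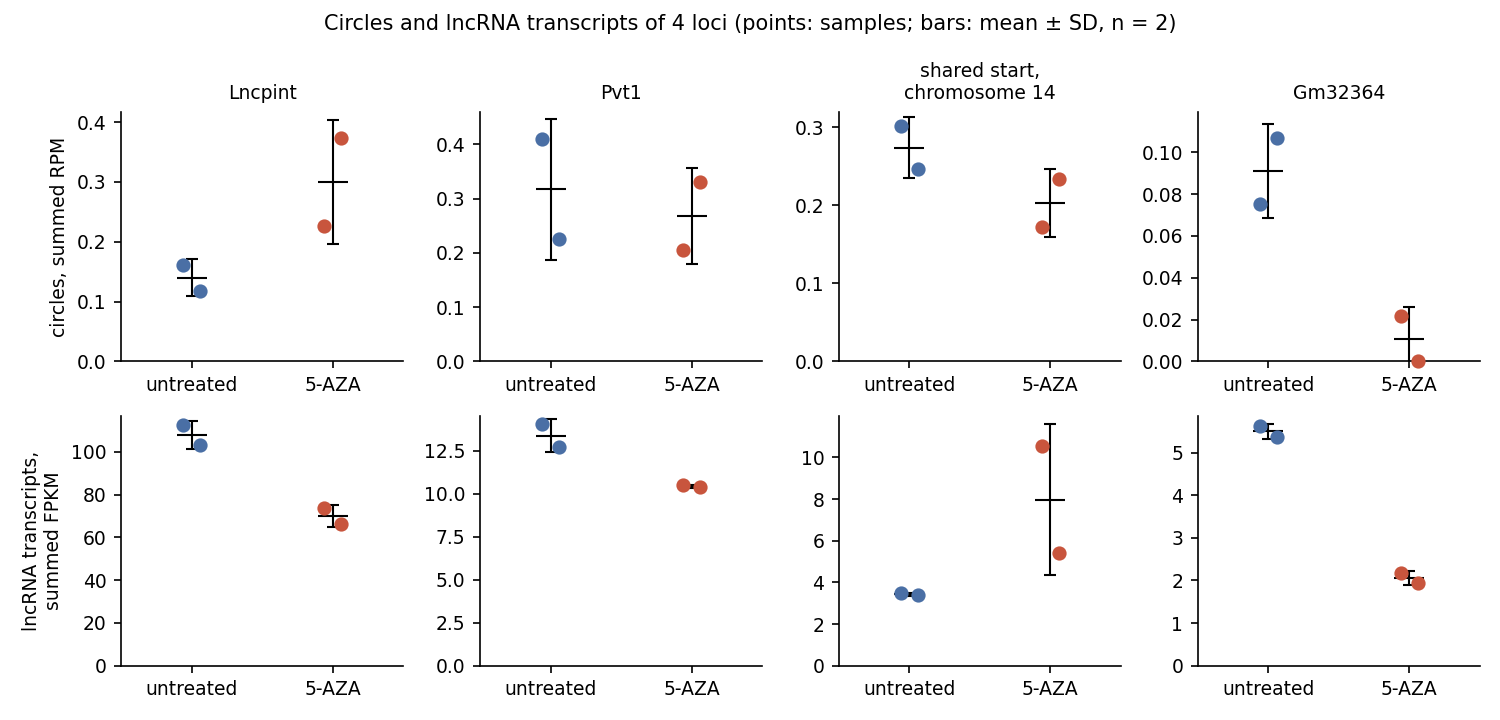
Summed RPM of the circles (upper row) and summed FPKM of the lncRNA transcripts on the same strand (lower row) at 4 intergenic loci, for the untreated and the 5-AZA samples (points, with mean and SD, n = 2). At Lncpint the circles are higher and the transcripts lower after 5-AZA, and at Gm32364 both are lower. On chromosome 14 the transcripts are higher and the circles lower, but the circle groups are barely apart (23 reads in replicate 2, 22 in replicate 102).

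The mitochondrial circles were 15 on the - strand and 4 on the + strand, and 16 of the 19 overlapped a ribosomal RNA gene, mt-Rnr1 or mt-Rnr2. Of the 19, 17 were listed in 1 sample, and whether their reads come from back-splicing was not tested. circRNA_4191 (chrMT:1871-3833, - strand) had 96 reads in replicate 102 and none elsewhere, and circRNA_4184 had 26 reads in replicate 1 alone. circRNA_4177 (chrMT:104-354, + strand), within mt-Rnr1, had 20, 20, 0 and 0 reads. The lncRNA transcript listed on its strand had 19669, 21578, 22716 and 17044 FPKM. The untreated mean of this circle was 6.68-fold a floor of 3 reads per 5-AZA library, with its own reads taken as exact (limma unadjusted p = 0.000946, adjusted p = 0.119).

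The other members at an unadjusted p below 0.05 were circRNA_0522 on chromosome 11, with 3, 3, 0 and 0 reads, and circRNA_4075 on chromosome 9, with 0, 0, 3 and 2 reads. Both are intergenic and were named after their values were seen. Over the 3 types, 3 of the 30 tested circles were listed in both untreated samples and in no 5-AZA sample (9.49% of all circRNAs tested), and 3 the reverse (6.54%).

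Among intronic circles, 1 stood out in reads. circRNA_3908 (chr8:107334912-107335484, + strand) lies within Nfat5, the gene of an osmotic stress transcription factor, and had 10, 17, 11 and 5 reads. Its 43 reads were 19% of the 226 reads of the type. The groups overlapped, with 0.145 ± 0.0526 RPM untreated and 0.0858 ± 0.0461 RPM after 5-AZA (SD, n = 2), and the log2 difference was -0.67 ± 0.49 (SE; limma adjusted p = 0.675). Nfat5 mRNA had 20.7, 21.4, 20.2 and 19.7 FPKM.

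The remaining 65 intronic circles had 2 to 6 reads. circRNA_3114 in the scaffold gene Magi2 had 6 reads in replicate 1, circRNA_3524 in C2cd5 and circRNA_0521 in Fignl1 had 5 reads in replicate 101, and circRNA_3893 in the proton pump gene Atp6v0d1 had 3 reads in replicates 1 and 101. Rspo2, a Wnt signal enhancer, and Samd4 held 3 intronic circles each, and each of these circles was listed in a single sample. A single sample with 2 to 6 reads does not allow a comparison between groups.

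**Figure D5:**
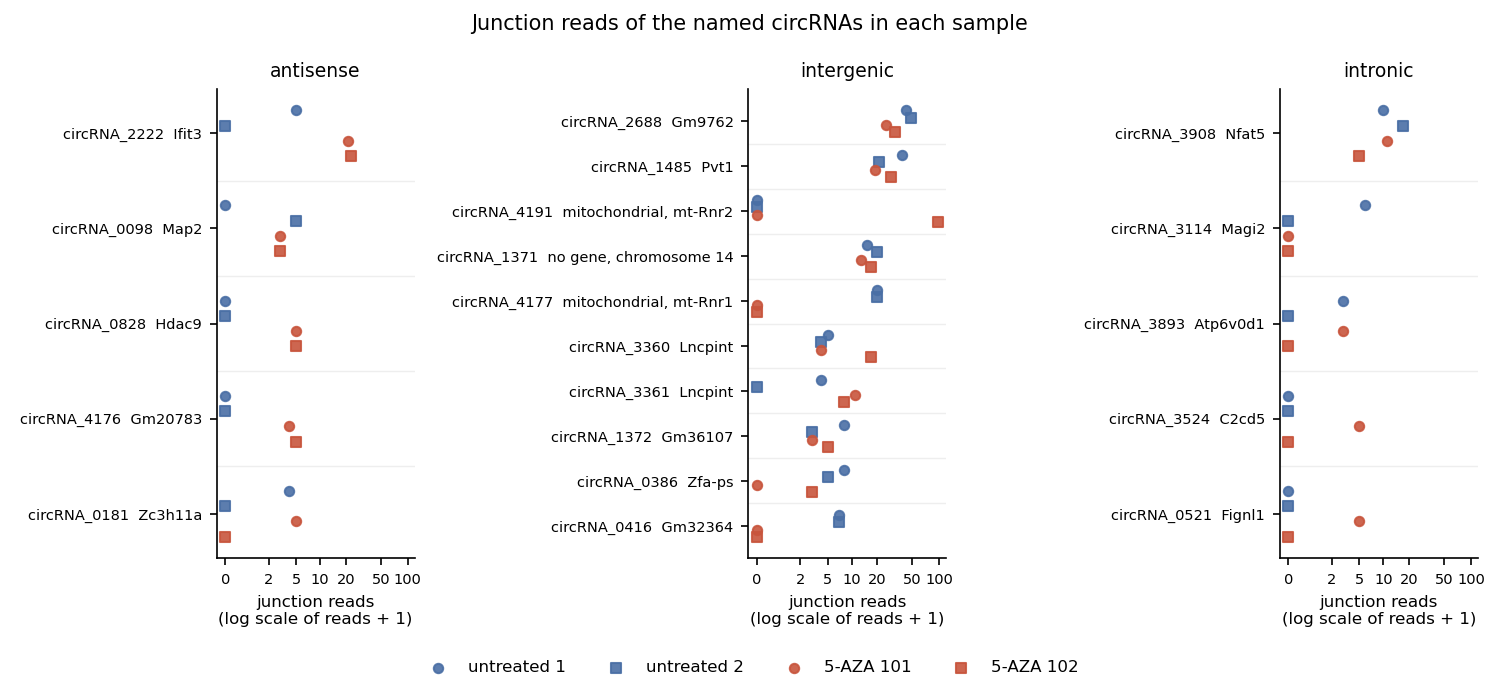
Junction reads of the named circRNAs of each type (rows) in the 4 samples (points, log scale of reads + 1). The circle at Ifit3 is higher in both 5-AZA samples, the circle in mt-Rnr1 was listed in the untreated samples only, and the intronic circle in Nfat5 was listed in all 4.

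Intronic circles covered a small part of long genes. Their host transcripts had a median of 90617 bases, the circles spanned a median of 1.38% of them, and 43 of the 66 had their middle in the first 50% of the transcript. Of the 58 host genes, 32 also gave exonic or sense-overlapping circles (55.2%), against 19 of 51 antisense hosts (37.3%). No host of the 58 was called by limma, against 4.23% of the sense-overlapping hosts tested and 14.4% of all genes tested. An unadjusted limma p below 0.05 was reached by 5 hosts that were higher (24.4% of all genes tested) and 10 that were lower after 5-AZA (11.1%). Of the 2031 sense-overlapping hosts tested, 255 were higher and 325 lower by the same measure, so more lower than higher hosts is not particular to the intronic type. Fn1, which encodes fibronectin, had 323, 320, 184 and 227 FPKM, a log2 difference of -0.65 ± 0.12 (SE; limma adjusted p = 0.00397), which is under 2-fold.

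Genes that form, bind or remove circles and lariats were read from a list of 20, of which 19 were tested. Of the 19, 1 was called, higher, and none lower (14.4% of all genes were called, 13.1% higher and 1.32% lower), and the median log2 difference was -0.08 against 0.05 over all genes. The called gene was Rbm20, a muscle splicing regulator that acts on Ttn, with 0.125, 0.0617, 1.21 and 1.51 FPKM, a log2 difference of 2.93 ± 0.33 (SE; limma adjusted p = 0.000273), and it was not called without replicate 101 or without replicate 102. Dbr1, the lariat debranching enzyme, had 5.90, 5.35, 7.20 and 7.31 FPKM, a log2 difference of 0.36 ± 0.14 (SE; limma adjusted p = 0.107). Its groups did not overlap, and it was not called. Adar, an RNA editing enzyme that acts on double-stranded RNA, had 5.26, 4.74, 8.15 and 8.51 FPKM, a log2 difference of 0.73 ± 0.14 (SE; limma adjusted p = 0.00658), under 2-fold. Srsf1, a splicing factor, had 69.5, 64.2, 54.2 and 53.3 FPKM, a log2 difference of -0.31 ± 0.10 (SE; limma adjusted p = 0.0455), also under 2-fold.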

How the data were processed

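RNA from 2 untreated and 2 5-AZA treated C3H10T1/2 samples was depleted of ribosomal RNA and sequenced from stranded libraries. Per the labels, the submitters' processing notes name Trimmomatic, HISAT2, Bowtie2 2.2.9 and eXpress 1.5.1. The circRNA predictor and its definition of types are not given in the sources used here. The authors deposited RPM values per circRNA and FPKM values per mRNA and lncRNA transcript. The notes name mm9, but listed host transcripts of 1571 of 2131 matched genes share an end, within 1 base, with a RefSeq gene of GRCm38.p6, so positions are given as GRCm38. Sequences are from RefSeq, GRCm38.p6.

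Junction reads were recovered as RPM divided by 50% of the smallest value above 0 of the sample, and 100% of values came out whole (tolerance 1e-06). limma 3.58.1 in R 4.3.3 (lmFit, eBayes with trend) was fitted to log2(RPM + 0.0213) of circRNAs listed in at least 2 samples, and to log2(FPKM + 0.1) of genes (transcripts summed) and lncRNA transcripts with a mean of at least 0.1 FPKM, with Benjamini and Hochberg's adjustment over each table. Such fold changes understate the change of low values. FPKM keeps no read depth. Genes and lncRNAs were called at an adjusted p below 0.05 and over 2-fold. Sums were compared by an exact permutation test over samples. The fits were tested on simulated data. For circRNAs the check was on the median log2 difference of changed circles, not on how many of them were called.

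Named circRNAs are the 5 with the most reads of each type, the 3 largest differences in each direction, those listed in both samples of 1 group only with at least 8 reads, and intronic or intergenic circles listed in all 4 samples, with their host genes, and the called genes of the list of handling genes. Other names were chosen after their values were seen. The members and lists were chosen with earlier results of these data known. As alternatives, the pseudocount, the detection limit and the scaling were varied, and each sample was left out.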

Additional observations from a re-analysis of the deposited data

How the results depend on the processing

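No paired analysis was possible because the groups share no replicate number. The planned count tests edgeR and DESeq2 were not run, and limma voom was added after seeing the data. circRNAs past the adjusted threshold numbered 0 with all 4 samples, 3 without a limit on detection and 10 among those listed in all 4 samples, none of them antisense, intergenic or intronic.

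The log2 ratio of the intergenic sum was 0.02 and turned to -0.32 with circles listed in all 4 samples and to -0.073 without mitochondrial circles, an alternative added after seeing the data. With 1 sample left out it ranged from -0.35 (without replicate 102) to 0.31 (without replicate 101), with -0.08 without untreated replicate 2. The antisense sum could not be computed for circles listed in all 4 samples, since there were none. The mean number of circles listed per sample was 15.75 antisense, 36.75 intergenic and 17.5 intronic, and 3.5, 12 and 1.75 with at least 5 reads, and 9.75 intronic with at least 3 reads. Median lengths of circles listed in at least 2 samples were 11384.5 (antisense) and 13943 bases (intergenic), and 1167 bases for antisense circles weighted by reads. In circBase were 33.3% of antisense, 50% of intergenic and 0% of intronic circles listed in at least 2 samples, and 30.6% of intergenic circles weighted by reads. A lncRNA locus on the same strand overlapped 69.5% of intergenic circles, and both ends lay inside 1 lncRNA locus for 60% of intergenic circles. Called antisense hosts numbered 2 with a pseudocount of 1 FPKM and 2 to 3 without 1 sample. Of the intronic hosts, 1 was called, lower, after centring on the median (Edil3) or with the transcript of the highest mean (Fn1). Of the list of 20 genes, 2 were called with that transcript and 0 to 1 without 1 sample, with Rbm20 lost without replicate 101 or 102. Called lncRNA transcripts at intergenic circles numbered 2 with a pseudocount of 1 FPKM and 0 without any 1 sample. Where no value shows it, the cause was not tested.

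Depth limits most members: 2 or 3 reads in 1 sample cannot show a difference between groups, and the smallest listed value was 2 reads.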
